A study of Mus musculus with 6 samples.

Results

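The genes described here are the 42 sarcomere scaffold, Z-disc and M-band genes of mouse muscle: the proteins that hold thick and thin filaments in register, together with the chaperones that fold them. They were taken by name from a fixed list and found in the expression table through their NCBI gene numbers, and all 42 were present among its 17558 genes. For the description they were placed in 8 groups by role. RNA was sequenced from C2C12 cells, an immortalized mouse myoblast line that withdraws from the cell cycle and fuses into myotubes when growth serum is replaced by a low-serum medium. Every library came from cells kept for 48 h in such a medium with horse serum and an insulin, transferrin and selenium supplement, so no library shows the undifferentiated state. Cells labelled shScr stably carried a scrambled, non-targeting short hairpin RNA and are labelled wild type. Cells labelled shPkm1 and shPkm2 stably carried hairpins aimed at the Pkm1 or the Pkm2 splice form of the pyruvate kinase gene Pkm and are labelled knockdowns. The study asked what each form does in myoblast differentiation. There were 2 libraries per group and 6 in all. The labels do not say whether libraries of a group came from separate cultures or separately made lines, so p-values measure the spread between these libraries, which may be technical.

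A sarcomere runs from Z-disc to Z-disc, with the M-band at its centre. Titin spans from the Z-disc to the M-band, myomesins cross-link myosin filaments in the M-band, and nebulin lies along the actin filaments, whose ends are capped by tropomodulins. At the Z-disc a dense layer of alpha-actinin, PDZ-LIM proteins, calsarcins, telethonin, filamin C and desmin ties neighbouring sarcomeres to each other and to the membrane. In cultured myoblasts much of this set is switched on during terminal differentiation under MyoD, myogenin, MEF2 factors and serum response factor, while desmin and some Z-disc adaptors are already present in dividing myoblasts.

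Libraries held between 18216896 and 19796036 estimated counts, and library-size scaled log2 counts correlated across genes at 0.988 to 0.994 within groups and 0.860 to 0.921 between groups. Pkm itself was checked first. The Pkm1 form stood at 546 and 589 TPM (a level scaled to transcript length and to the library total, so that genes can be compared) in shScr, 243 and 218 TPM in shPkm1, and 254 and 254 TPM in shPkm2. The Pkm2 form stood at 1073 and 1517, 1278 and 1379, and 2699.7 and 2629.5 TPM in the same order. It was thus not lower in the group whose label names it (log2 fold change 0.63, adjusted p 0.0656), and that group is called the shPkm2-labelled libraries throughout. The 10 skeletal muscle markers on a list of defining genes, all lower in both hairpin groups, summed to 42882 and 31998 TPM in shScr, 14079.7 and 15239 TPM in shPkm1 and 397 and 413 TPM in the shPkm2-labelled libraries. Fibroblast markers summed to 1291 and 1584 TPM in shScr, 7525 and 7258 TPM in shPkm1 and 1229 and 1068 TPM in the shPkm2-labelled libraries. All 5 tested genes of the 7 were higher in shPkm1, 3 were lower and 1 higher in the shPkm2-labelled libraries, and of the others Thy1 was listed at 0 in 5 of 6 libraries and Lum in 3 of 6. Tested markers of smooth muscle were 1 lower and 3 higher of 6 in shPkm1, those of cardiac muscle 5 lower of 5, and those of adipocytes 2 higher of 2. Against shScr, 5 smooth muscle markers in the shPkm2-labelled libraries were lower and 1 higher, 5 cardiac ones lower and 1 adipocyte one higher. Of all 12643 tested genes, 31.4% were lower and 31.8% higher in shPkm1, and 34.2% and 33.9% in the shPkm2-labelled libraries. The part of such shifts in the values of the sarcomere genes was not tested, and in bulk RNA fewer differentiated cells and less RNA per cell cannot be told apart.

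In shScr the set was expressed over a wide range. Per library between 33 and 34 of the 42 genes reached 10 TPM and the median gene stood at 96.3 and 69.6 TPM. Mybph and Des were the most abundant, at 2372 and 2102 TPM and 2248 and 2322 TPM. Summed over all 42 genes, the set made up 0.984% and 0.897% of all TPM in shScr, 0.623% and 0.643% in shPkm1, and 0.202% and 0.189% in the shPkm2-labelled libraries. The median gene stood at 32.3 and 33.6 TPM in shPkm1 and at 1.49 and 1.5 TPM in the shPkm2-labelled libraries. The shScr libraries themselves differed in this set. Of the 35 members with a mean of at least 50 counts, 33 were higher in shScr library 1 than in library 2, with a median ratio of 1.37 after scaling by library size, against 0.945 and 1.09 in the other groups.

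**Figure D1:**
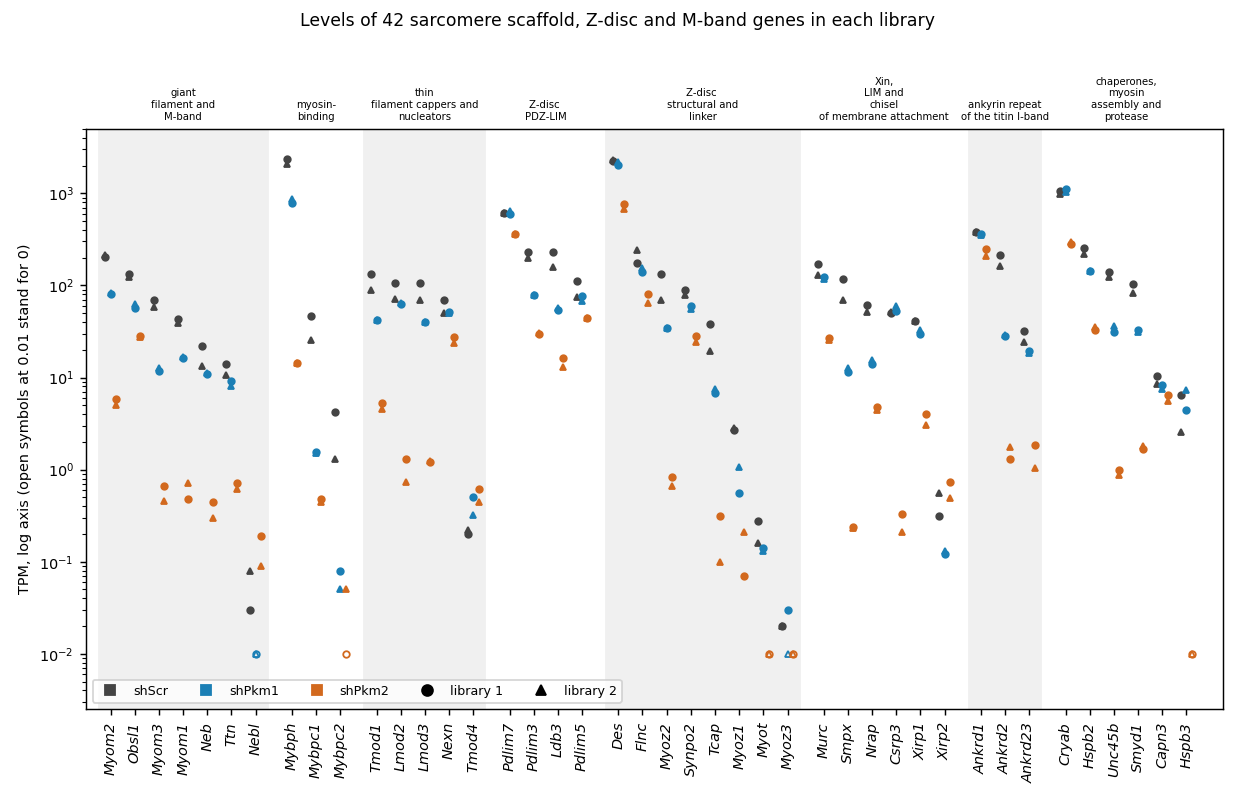
TPM of each of the 42 genes in each library on a log axis, grouped by role and ordered by level in shScr; circles are library 1, triangles library 2, and open symbols drawn at 0.01 stand for 0. In the shPkm2-labelled libraries (orange) most genes sit far below shScr (grey), while the points of Pdlim5, Pdlim7, Ankrd1 and Capn3 lie close together across groups.

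Nearly the whole set was lower in both hairpin groups, and by far more in the shPkm2-labelled libraries. Of the 42 genes, 39 had enough counts for the test, and Nebl, Myoz3 and Myot did not. Against shScr, 35 of the 39 were lower and 0 higher in shPkm1 at an adjusted p under 0.05, where 31.4% of all tested genes were lower and 31.8% higher (63.1% called in all). In the shPkm2-labelled libraries, 37 were lower and 0 higher, where 34.2% of all tested genes were lower and 33.9% higher (68.0% in all). The median log2 fold change of the 39 was -1.54 in shPkm1 and -4.64 in the shPkm2-labelled libraries, beside medians within 0.01 of 0 over all tested genes. With the 6 genes whose shPkm2 counts lay at or under a floor of 3 counts per library placed at their lower bound, the second median was -4.13. A fall of at least 2-fold was found for 22 members in shPkm1, where 9.41% of all tested genes fell so far, and for 35 in the shPkm2-labelled libraries, where 13.7% did. A fall of at least 8-fold was found for 4 members in shPkm1 (1.31% of all tested genes) and for 27 in the shPkm2-labelled libraries (3.91%), and one of at least 32-fold for 18 in the latter (1.74%). The last number is 17 when genes at the floor are counted by their lower bound, which for Hspb3 is 17.1-fold. Both hairpin comparisons use the same shScr libraries. The hairpin groups were therefore also set against each other directly: 35 members were lower in the shPkm2-labelled libraries than in shPkm1, 1 was higher and 3 were not called, with a median of -2.51 (-2.39 with genes at the floor at their bound) and 27.3% of all tested genes lower and 25.7% higher (53.0% in all). In this contrast 19 members were at least 8-fold lower (3.95% of all tested genes) and 9 at least 32-fold (1.37%), or 7 by the lower bounds, which are 16.5-fold for Hspb3 and 24.6-fold for Tcap. Values after ± are standard errors of the fit on the log2 scale.

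**Figure D2:**
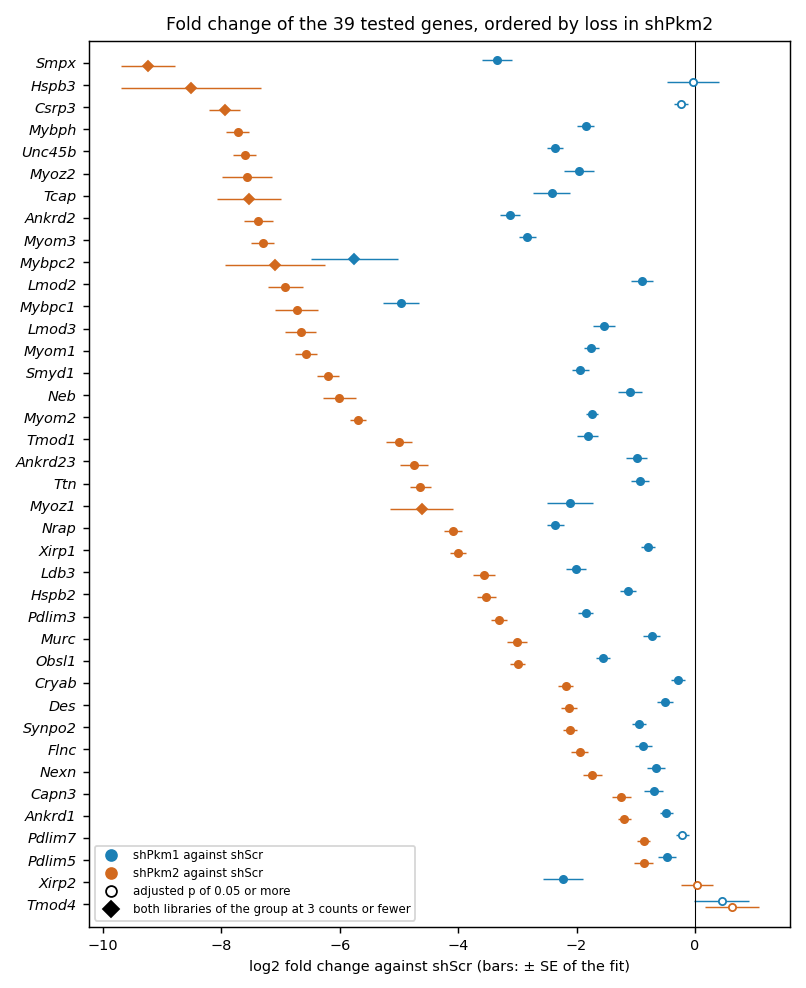
Log2 fold change against shScr of the 39 tested genes in shPkm1 (blue) and in the shPkm2-labelled libraries (orange), with the standard error of the fit as bars, ordered by loss in the latter; open symbols did not pass an adjusted p of 0.05, and diamonds mark genes with both libraries of the group at 3 counts or fewer, whose fitted value depends on the fit's prior. Smpx, Hspb3 and Csrp3 lead the order in shPkm2, whereas Mybpc2 and Mybpc1 lie farthest left in shPkm1.

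The count for shPkm1 was 35 with DESeq2 size factors and 33 with library totals, where 21.0% of all tested genes were lower. On the deposited TPM values, tested with limma and without the filter on counts, 23 and 22 of the 42 genes were lower in shPkm1 with pseudocounts of 1 and 0.1 (background 10.6% and 10.7%), and on that scale the median over all genes was itself at 0.31 and 0.38. Both pseudocounts lost the shPkm1 calls of Ttn, Neb, Lmod2, Nexn, Pdlim5, Flnc, Des, Murc, Ankrd1, Ankrd23, Capn3 and Cryab, and that of Xirp1 was lost with the smaller one. These fits differ from the count test in scale, test and genes tested, whose parts in the lower count were not told apart. In the shPkm2-labelled libraries the limma fits called 38 and 38 of the 42 lower (background 13.4% and 13.7%). Without shScr library 1, the library with the higher levels, 34 members were lower in shPkm1 and 37 in the shPkm2-labelled libraries, and without library 2 the counts were 38 and 37.

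All 6 tested of the 7 giant filament and M-band genes were lower in both hairpin groups, with medians of -1.64 in shPkm1 and -5.85 in the shPkm2-labelled libraries. Of all tested genes 31.4% and 34.2% were lower. Ttn stood at 14.2 and 10.7 TPM in the shScr libraries, 9.21 and 8.15 TPM in shPkm1 and 0.72 and 0.61 TPM in the shPkm2-labelled libraries. Titin, the elastic filament that sets sarcomere length (chr2:76703980-76982557 in GRCm38), was far lower in the shPkm2-labelled libraries than in the other 4. In shPkm1 the mean TPM of Ttn was 69.9% of that of shScr. The log2 fold change of Ttn was -0.93 ± 0.15 (adjusted p 1.52e-04) in shPkm1 and -4.64 ± 0.18 (adjusted p 1.16e-10) in the shPkm2-labelled libraries, and the direct contrast gave -3.71 ± 0.17 (adjusted p 1.23e-09). Neb stood at 21.8 and 13.4 TPM in the shScr libraries, 10.8 and 11.2 TPM in shPkm1 and 0.45 and 0.30 TPM in the shPkm2-labelled libraries. Nebulin, the ruler of the thin filament, followed the same order of groups, at -6.01 ± 0.28, adjusted p 6.75e-10, in the shPkm2-labelled libraries and, in shPkm1, -1.09 ± 0.21 (adjusted p 5.04e-04), or -0.60 without shScr library 1.

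The 3 myomesins, which bridge myosin filaments at the M-band, differed in their loss. Myom3 stood at 70.02 and 58.9 TPM in the shScr libraries, 11.9 and 12.6 TPM in shPkm1 and 0.66 and 0.46 TPM in the shPkm2-labelled libraries. This was the largest fall of the group in both comparisons, at -2.83 ± 0.14 (adjusted p 4.03e-09) and -7.30 ± 0.20 (adjusted p 7.63e-12). Myom2, the most abundant of them at 204 and 213 TPM in shScr, fell to 80.1 and 83.1 TPM in shPkm1 and 5.84 and 4.99 TPM in the shPkm2-labelled libraries. Myom1 stood at 43.6 and 39.05 TPM in the shScr libraries, 16.3 and 16.5 TPM in shPkm1 and 0.48 and 0.71 TPM in the shPkm2-labelled libraries, with log2 fold changes of -1.75 and -6.57. Obsl1, an obscurin-like adaptor that ties the M-band to titin and myomesin and is also expressed outside muscle, kept the most in the shPkm2-labelled libraries: it stood at 133 and 124 TPM in shScr, 56.7 and 63.5 TPM in shPkm1 and 28.3 and 27.3 TPM in the shPkm2-labelled libraries, a change of -1.55 ± 0.12 (adjusted p 1.82e-07) and -2.99 ± 0.13 (adjusted p 2.72e-10). Nebl, the short nebulin relative of the cardiac Z-disc, was near the floor everywhere, with 3 and 7 counts in shScr, 0 and 0 in shPkm1 and 15 and 7 in the shPkm2-labelled libraries.

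The myosin-binding proteins, which sit on the thick filament and tune its contact with actin, held the largest falls in shPkm1. Mybpc1 stood at 47.04 and 25.4 TPM in the shScr libraries, 1.56 and 1.53 TPM in shPkm1 and 0.48 and 0.44 TPM in the shPkm2-labelled libraries. The slow-type protein was thus separated from shScr in every hairpin library, although shScr library 1 was well above library 2. Its log2 fold change was -4.96 ± 0.30 (adjusted p 2.68e-08) in shPkm1, or -4.34 without that library, and -6.73 ± 0.36 (adjusted p 2.70e-09) in the shPkm2-labelled libraries (-6.11 without it). The further step between the hairpin groups was -1.76 ± 0.50 (adjusted p 0.00899). Without shPkm1 library 2 it was -1.72 and no longer passed the threshold. Mybpc2 held 184 and 56 counts in the shScr libraries, 3 and 2 in shPkm1 and 0 and 2 in the shPkm2-labelled libraries. The fast-type protein was at or under the floor in all 4 hairpin libraries, at least 47.6-fold lower in shPkm1 and at least 52.1-fold lower in the shPkm2-labelled libraries, or 20.3-fold and 22.3-fold against shScr library 2 alone. Between these no difference was called (adjusted p 0.547), and since both are at the floor none was detectable at this depth.

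Mybph, myosin-binding protein H, was the most abundant of the 42 genes in shScr library 1. Mybph stood at 2372 and 2102 TPM in the shScr libraries, 778 and 865 TPM in shPkm1 and 14.6 and 14.4 TPM in the shPkm2-labelled libraries. The mean was 36.7% of that of shScr in shPkm1 and 0.648% in the shPkm2-labelled libraries. The log2 fold changes were -1.84 ± 0.14 (adjusted p 2.32e-07) and -7.73 ± 0.19 (adjusted p 4.88e-12), with -5.89 ± 0.18 (adjusted p 3.37e-11) in the direct contrast. Because Mybph and its relatives moved so far, its promoter is shown, as the 250 bases before the RefSeq start (GRCm38.p6, chr1:134193198-134193447, plus strand), with a MyoD-type E-box and an adjoining MCAT element, the site bound by TEAD factors, in capitals:

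Mybph promoter: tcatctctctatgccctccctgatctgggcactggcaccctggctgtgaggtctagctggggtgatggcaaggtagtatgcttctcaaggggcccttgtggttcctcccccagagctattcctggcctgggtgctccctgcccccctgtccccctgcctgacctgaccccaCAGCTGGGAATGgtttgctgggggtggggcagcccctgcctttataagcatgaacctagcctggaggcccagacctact

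The motifs are matches to letters, not sites of measured binding. The E-box CAGCTG begins 79 bases before the start and the MCAT match (CATTCC, here on the reverse strand) 73 bases before it, so that they abut.

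Promoters were available for 31 of the 42 genes, as 40 windows of 250 bases, and were searched on both strands. CAGCTG, a subset of the general E-box CANNTG, was in 8 of the 40 windows (20.0%), against 13.0% of all 32851 RefSeq windows of this length. CANNTG was in 70.0% against 66.2%. The MEF2 site was in 7 windows (17.5%, against 2.92% of all), those of Capn3, Hspb3, Myom3, Myoz2, Synpo2, Ttn and Xirp2. These genes span nearly the whole range of loss in the shPkm2-labelled libraries, from Hspb3 with 0 counts there to Xirp2, which was not called. The CArG box, bound by serum response factor, was in 4 windows of Ldb3, Myom1 and Nebl (10.0%, against 1.47%). MCAT was in 8 (20.0%, against 12.6%). The tested genes with it had log2 fold changes from -1.19 (Ankrd1) to -7.73 (Mybph) in the shPkm2-labelled libraries. Some windows of one gene overlap, and these shares are descriptions with no test.

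Among the genes for thin filament ends, 4 of 5 fell in shPkm1 and the same number in the shPkm2-labelled libraries, where 31.4% and 34.2% of all tested genes fell. Lmod2 stood at 107 and 70.4 TPM in the shScr libraries, 62.6 and 64.2 TPM in shPkm1 and 1.29 and 0.73 TPM in the shPkm2-labelled libraries. Lmod3 stood at 106 and 69.7 TPM in the shScr libraries, 40.3 and 40.4 TPM in shPkm1 and 1.2 and 1.24 TPM in the shPkm2-labelled libraries. These leiomodins, which nucleate and lengthen actin filaments, were both far lower in the shPkm2-labelled libraries, while in shPkm1 Lmod2 stayed close to shScr library 2. Lmod2 changed by -0.89 ± 0.19 (adjusted p 0.00106) in shPkm1 (-0.45 without shScr library 1) and -6.93 ± 0.30 (adjusted p 3.28e-10) in the shPkm2-labelled libraries, and Lmod3 by -1.54 and -6.66. Tmod1, the capping protein of the pointed end, stood at 133 and 89.98 TPM in shScr, 42.4 and 42.3 TPM in shPkm1 and 5.31 and 4.6 TPM in the shPkm2-labelled libraries. Its fall was -1.81 ± 0.18 (adjusted p 1.92e-06) and -5.0 ± 0.22 (adjusted p 4.06e-10). It overlaps Tstd2 in the annotation, and as the counting is not stated to use strand, reads of such partners may be mixed. The smallest fall of the group was that of Nexn, an F-actin binding protein of the Z-disc. Nexn stood at 68.9 and 50.4 TPM in the shScr libraries, 51.3 and 49.9 TPM in shPkm1 and 27.3 and 23.9 TPM in the shPkm2-labelled libraries. Groups overlapped between shScr and shPkm1 on this scale, where the count test gave -0.66 ± 0.15 (adjusted p 0.00222), or -0.32 without shScr library 1, and were separate from the shPkm2-labelled libraries, at -1.74 ± 0.16 (adjusted p 5.83e-07). Tmod4 held 9 and 10 counts in the shScr libraries, 16 and 14 in shPkm1 and 25 and 12 in the shPkm2-labelled libraries. This skeletal tropomodulin was hardly expressed and overlaps the much more abundant Vps72. It was not called in any of the comparisons, with values of 0.45, 0.62 and 0.17, the last comparing the hairpin groups.

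The PDZ-LIM proteins bind alpha-actinin through a PDZ domain and carry LIM domains, in some genes only in the long forms. Of the 4, Ldb3 and Pdlim3 fell strongly and Pdlim5 and Pdlim7 little. Ldb3 stood at 232 and 159.9 TPM in the shScr libraries, 53.5 and 56.2 TPM in shPkm1 and 16.2 and 13.1 TPM in the shPkm2-labelled libraries. Pdlim3 stood at 229.6 and 198 TPM in the shScr libraries, 79.1 and 78.5 TPM in shPkm1 and 29.9 and 30.6 TPM in the shPkm2-labelled libraries. Levels of both genes ran in the order shScr, shPkm1, shPkm2. Ldb3 changed by -2.0 ± 0.17 (adjusted p 4.75e-07) and -3.56 ± 0.18 (adjusted p 1.99e-09), and Pdlim3 by -1.85 ± 0.13 (adjusted p 8.11e-08) and -3.31 ± 0.14 (adjusted p 2.77e-10). Pdlim7 stood at 615 and 607 TPM in the shScr libraries, 604 and 637 TPM in shPkm1 and 363 and 362 TPM in the shPkm2-labelled libraries. Pdlim5 stood at 113 and 74.3 TPM in the shScr libraries, 76.1 and 66.96 TPM in shPkm1 and 44.6 and 43.8 TPM in the shPkm2-labelled libraries. These are the smallest falls of the called members in the shPkm2-labelled libraries, at -0.87 ± 0.11 (adjusted p 1.19e-05) for Pdlim7 and -0.86 ± 0.16 (adjusted p 3.07e-04) for Pdlim5. In shPkm1, Pdlim7 was not called (-0.21 ± 0.11, adjusted p 0.103). Without shScr library 2, with only shScr library 1 as control, the value was -0.30. The call of Pdlim5 in shPkm1 (-0.47 ± 0.16, adjusted p 0.0186) was lost without shScr library 1, at -0.12, and without either shPkm1 library, at -0.51 and -0.42. Pdlim5 did not pass the threshold between the hairpin groups (-0.39 ± 0.16, adjusted p 0.0531), but 10 of 15 alternatives called it lower (adjusted p 6.19e-05 to 0.222 over all of them). Without shScr library 1 the fall of Pdlim5 against shScr in the shPkm2-labelled libraries was -0.51.

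Beneath the gene totals, transcripts of Pdlim5, Pdlim7 and Ldb3 changed unequally. Pdlim5, Pdlim7 and Ldb3 each have long forms with a run of coding exons that the short forms lack. The middle one, of the same length in all 3 genes, is shown because its use sets the forms apart, with the 66 bases common to all 3 genes in capitals (GRCm38, all on the minus strand, written in the direction of the transcript):

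Pdlim5, chr3:142247295-142247415: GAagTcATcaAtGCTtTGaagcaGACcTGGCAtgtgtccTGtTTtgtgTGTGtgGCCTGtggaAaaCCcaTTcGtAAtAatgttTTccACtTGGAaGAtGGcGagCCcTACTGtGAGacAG
Pdlim7, chr13:55499101-55499221: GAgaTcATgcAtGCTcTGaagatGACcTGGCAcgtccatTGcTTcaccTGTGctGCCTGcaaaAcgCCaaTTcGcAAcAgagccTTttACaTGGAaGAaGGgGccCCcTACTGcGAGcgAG
Ldb3, chr14:34541868-34541988: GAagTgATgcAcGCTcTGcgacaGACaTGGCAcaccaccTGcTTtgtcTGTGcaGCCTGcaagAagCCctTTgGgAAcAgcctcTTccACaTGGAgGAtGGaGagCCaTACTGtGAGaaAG

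Aligned end to end, the exon of Pdlim5 was identical to that of Ldb3 at 70.2% of positions and to that of Pdlim7 at 66.1%, and the latter 2 matched at 67.8%.

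For Pdlim5, forms with this exon held 2.59% and 3.74% of transcript TPM in the shScr libraries, 22.8% and 24.7% in shPkm1 and 61.7% and 65.0% in the shPkm2-labelled libraries. For Ldb3 the share was 20.7% and 22.96% in shScr, 37.1% and 26.1% in shPkm1 and 59.96% and 65.6% in the shPkm2-labelled libraries. For Pdlim7 it was 1.32% and 1.89% in shScr, 4.86% and 4.57% in shPkm1 and 13.8% and 10.6% in the shPkm2-labelled libraries. Of the classed TPM, the share of long forms rose in the order shScr, shPkm1, shPkm2 in all 3 genes. How often other genes show such an order was not counted. Shares are over transcripts whose exons were known here, which held only 54.5% and 55.5% of Pdlim7 TPM in the shPkm2-labelled libraries, 75.3% and 75.02% in shPkm1, and 78.3% of Ldb3 TPM in shPkm1 library 2, against 98.5% in library 1. The small gap between shScr and shPkm1 for Ldb3 rests on that less complete library. A larger share can come from more of one form or less of the other. For Pdlim5 both were seen: the long transcript NM_019808.3 held 0 and 18 counts in shScr, 647 and 697 in shPkm1 and 1456 and 1558 in the shPkm2-labelled libraries, while the short NM_019809.3 held 1920 and 1477 in shScr, 1097 and 999 in shPkm1 and 435 and 392 in the shPkm2-labelled libraries. The long transcript was higher in both hairpin groups (adjusted p 0.0211 and 0.00956) and the short one lower in the shPkm2-labelled libraries (log2 fold change -2.36, adjusted p 0.00374). The long NM_001114088.2 of Pdlim7 was likewise higher, with 227 and 314 counts in shScr, 577 and 635 in shPkm1 and 774 and 629 in the shPkm2-labelled libraries, and log2 fold changes of 1.0 (adjusted p 0.030) and 1.07 (adjusted p 0.017). For Ldb3, by contrast, the larger share of long forms went with a fall of the short NM_001039075.2 from 2289 and 1236 counts in shScr to 324 and 312 in shPkm1 and 13 and 0 in the shPkm2-labelled libraries, which passed the test in the latter (adjusted p 0.00752) and not in shPkm1 (adjusted p 0.0759).

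Over the set, 146 of 185 listed transcripts could be tested. In shPkm1 27 were lower and 3 higher, where 5.36% and 5.47% of all transcripts were. The shPkm2-labelled libraries had 77 lower and 3 higher, where 9.32% and 7.91% of all transcripts were. Between the hairpin groups 53 were lower and 1 higher, where 5.04% and 2.87% of all transcripts were. A test of whether transcripts of a gene change unequally (diffSpliceDGE in edgeR) called 2 of 135 transcripts in shPkm1 (0.411% of all), in Pdlim5 and Pdlim7. In the shPkm2-labelled libraries it called 13 (1.1% of all), in Cryab, Flnc, Ldb3, Myom2, Pdlim5 and Pdlim7, and 5 between the hairpin groups (0.526% of all). This test was added after the transcript values had been seen. A gene without a call may still differ in its forms. Transcripts of a gene share most of their reads, and how the authors' program divided them sets these values.

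**Figure D3:**
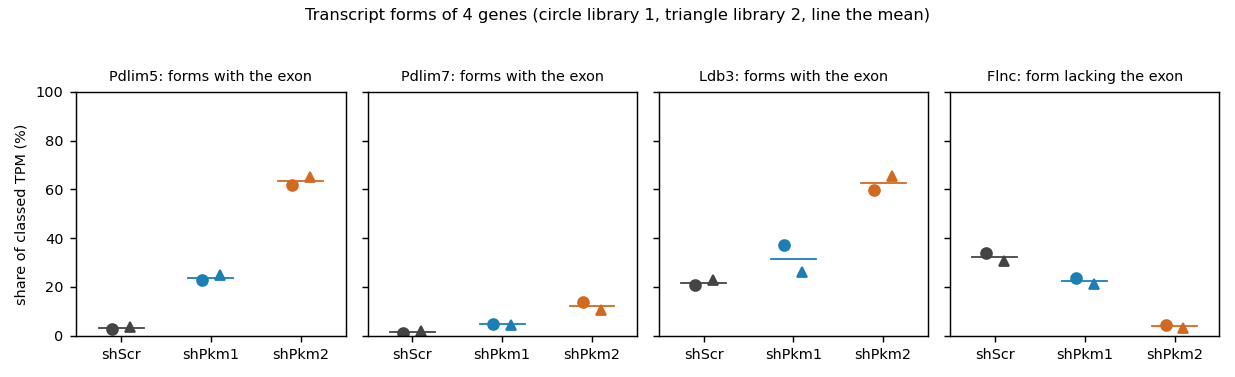
Share of classed TPM, in percent, of the transcript forms that hold the shared exon in Pdlim5, Pdlim7 and Ldb3, and of the form of Flnc that lacks a 99-base exon, in each library of each group; circles are library 1, triangles library 2 and lines the mean. The shares are lowest in shScr and highest in shPkm2 for Pdlim5, Pdlim7 and Ldb3, and in the opposite order for Flnc.

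Of the Z-disc structural and linker genes, all 6 tested of 8 fell in both hairpin groups, where 31.4% (shPkm1) and 34.2% of all tested genes fell. Myoz2 stood at 132 and 69.5 TPM in the shScr libraries, 34.5 and 34.6 TPM in shPkm1 and 0.84 and 0.66 TPM in the shPkm2-labelled libraries. Tcap stood at 37.9 and 19.5 TPM in the shScr libraries, 6.79 and 7.45 TPM in shPkm1 and 0.31 and 0.10 TPM in the shPkm2-labelled libraries. Myoz2, a calsarcin that holds calcineurin at the Z-disc, and Tcap, telethonin, which caps titin's end in the Z-disc, were close to 0 in the shPkm2-labelled libraries. Myoz2 changed by -1.97 ± 0.25 (adjusted p 1.99e-05) and -7.57 ± 0.42 (adjusted p 4.18e-09). Tcap changed by -2.42 ± 0.31 (adjusted p 1.94e-05) in shPkm1 and, with 3 and 1 counts, was at least 132-fold lower in the shPkm2-labelled libraries (82.3-fold against shScr library 2 alone). For both, shScr library 1 was nearly 2 times library 2. Without it the falls in shPkm1 were -1.31 and -1.74 and that of Myoz2 in the shPkm2-labelled libraries -6.91, all past the threshold. The Myoz2 window held a MEF2 site and an E-box close to the start, in capitals (GRCm38.p6, chr3:123034988-123035237, minus strand):

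Myoz2 promoter: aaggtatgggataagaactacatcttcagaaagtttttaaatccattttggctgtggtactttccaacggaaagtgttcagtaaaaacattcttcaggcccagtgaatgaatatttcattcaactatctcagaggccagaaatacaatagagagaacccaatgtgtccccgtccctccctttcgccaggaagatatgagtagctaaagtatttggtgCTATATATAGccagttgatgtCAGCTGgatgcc

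Myoz1 held 41 and 42 counts in the shScr libraries, 7 and 15 in shPkm1 and 1 and 3 in the shPkm2-labelled libraries. This fast-fibre calsarcin was low throughout, and fell by 2.11 on the log2 scale in shPkm1 (adjusted p 4.03e-04; -2.71 without shPkm1 library 2) and at least 17.5-fold in the shPkm2-labelled libraries. The fitted step between the hairpin groups was -2.51. It was -1.90 without shPkm1 library 2 and -1.95 without shPkm2 library 1, and in both cases no longer passed the threshold. Myoz3 reached at most 1 count and Myot, myotilin, at most 7, and neither was tested.

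Des, Flnc and Synpo2 fell less. Des stood at 2248 and 2322 TPM in the shScr libraries, 2028 and 2173 TPM in shPkm1 and 757 and 681 TPM in the shPkm2-labelled libraries. Flnc stood at 175 and 239.9 TPM in the shScr libraries, 139 and 155 TPM in shPkm1 and 81.1 and 64.4 TPM in the shPkm2-labelled libraries. Synpo2 stood at 89.98 and 79.2 TPM in the shScr libraries, 60.1 and 55.4 TPM in shPkm1 and 28.3 and 24.1 TPM in the shPkm2-labelled libraries. Desmin, the intermediate filament that links Z-discs (chr1:75360292-75368579 in GRCm38), was still the most abundant member in the shPkm2-labelled libraries. Its change was -0.51 ± 0.13 (adjusted p 0.00454) in shPkm1, a call lost without shPkm1 library 1 (adjusted p 0.0862), and -2.13 ± 0.14 (adjusted p 1.88e-08) in the shPkm2-labelled libraries. Flnc, filamin C, an actin cross-linker of the Z-disc and membrane, changed by -0.87 ± 0.14 (adjusted p 1.28e-04) and -1.95 ± 0.14 (adjusted p 6.74e-08), and Synpo2, an actin-bundling adaptor also known as myopodin, by -0.94 and -2.11. The transcripts of Flnc fell unequally. NM_001311074.1, which lacks a coding exon of 99 bases, held 6439 and 7970 counts in shScr, 2931 and 3290 in shPkm1 and 345 and 220 in the shPkm2-labelled libraries. NM_001081185.1, which has it, held 12889 and 18472 in shScr, 9837 and 12638 in shPkm1 and 7818 and 6517 in the shPkm2-labelled libraries. The share of the form without the exon was thus 33.3 and 30.1% of the gene's counts in shScr, 22.96 and 20.7% in shPkm1 and 4.22 and 3.27% in the shPkm2-labelled libraries, and its unequal change there was called (adjusted p 4.48e-04). The exon that marks the difference lies at chr6:29452799-29452897 (GRCm38, plus strand):

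Flnc exon: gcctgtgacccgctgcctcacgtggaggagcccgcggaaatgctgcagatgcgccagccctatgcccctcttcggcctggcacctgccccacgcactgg

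The genes of membrane attachment held the largest loss, and also the only 1 of the 39 tested members that was called higher in the shPkm2-labelled libraries than in shPkm1. Smpx stood at 118 and 70.1 TPM in the shScr libraries, 11.4 and 12.7 TPM in shPkm1 and 0.24 and 0.23 TPM in the shPkm2-labelled libraries. Smpx, the small chisel protein of costameres on the X chromosome (chrX:157698973-157752591), held 2 and 2 counts in the shPkm2-labelled libraries and was at least 433-fold lower there than in shScr, the largest such bound of the set. In shPkm1 its change was -3.34 ± 0.25 (adjusted p 1.54e-07). Csrp3 stood at 50.7 and 51.3 TPM in the shScr libraries, 53.2 and 60.01 TPM in shPkm1 and 0.33 and 0.21 TPM in the shPkm2-labelled libraries. Csrp3, muscle LIM protein, a Z-disc and nuclear partner of MyoD, lay between 50.7 and 60.01 TPM in the 4 libraries of shScr and shPkm1 and was close to 0 in the other group, with 3 and 2 counts. No change was called in shPkm1 (-0.24 ± 0.12, adjusted p 0.107). Without shScr library 2, with only shScr library 1 as control, the value was -0.32. Csrp3 was at least 217-fold lower than shScr and at least 184-fold lower than shPkm1 in the shPkm2-labelled libraries.

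Xirp2 held 46 and 82 counts in the shScr libraries, 14 and 17 in shPkm1 and 97 and 67 in the shPkm2-labelled libraries. Xirp2, an actin-binding Xin-repeat protein, was low in all libraries, and lowest in shPkm1. It fell there (-2.23 ± 0.34, adjusted p 8.87e-05), was not called in the shPkm2-labelled libraries (0.03 ± 0.27, adjusted p 0.923), and was higher in these than in shPkm1 (2.26 ± 0.33, adjusted p 7.98e-05), where the other tested members of its group were lower. Its relative Xirp1 did otherwise. It stood at 41.5 and 40.9 TPM in shScr, 29.7 and 32.6 TPM in shPkm1 and 3.99 and 3.08 TPM in the shPkm2-labelled libraries, with changes of -0.80 ± 0.12 (adjusted p 6.16e-05) and -4.0 ± 0.14 (adjusted p 4.64e-11). Nrap, which anchors young myofibrils to the membrane, stood at 61.4 and 51.9 TPM in shScr, 13.9 and 15.3 TPM in shPkm1 and 4.73 and 4.47 TPM in the shPkm2-labelled libraries, or -2.36 and -4.09. Murc, the muscle cavin of caveolae, had the smallest fall among the called members of the group with at least 50 counts: 173 and 130.02 TPM in shScr, 123 and 119 TPM in shPkm1 and 26.6 and 25.7 TPM in the shPkm2-labelled libraries, or -0.73 ± 0.15 (adjusted p 8.16e-04) and -3.01 ± 0.16 (adjusted p 3.08e-09). Without shScr library 1 the first was -0.41.

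The 3 ankyrin repeat proteins, which bind titin in the I-band and shuttle to the nucleus under strain, differed in the size of their loss. Ankrd2 stood at 213 and 163 TPM in the shScr libraries, 28.4 and 28.8 TPM in shPkm1 and 1.32 and 1.77 TPM in the shPkm2-labelled libraries. Ankrd23 stood at 32.3 and 24.3 TPM in the shScr libraries, 19.4 and 18.4 TPM in shPkm1 and 1.86 and 1.05 TPM in the shPkm2-labelled libraries. Ankrd1 stood at 383 and 379.7 TPM in the shScr libraries, 366 and 351 TPM in shPkm1 and 248 and 211 TPM in the shPkm2-labelled libraries. All 3 followed the order shScr, shPkm1, shPkm2, and Ankrd1 kept at least 211 TPM in every library. How many of all genes follow this order was not counted. Ankrd2 changed by -3.12 ± 0.17 (adjusted p 8.15e-09) and -7.38 ± 0.24 (adjusted p 2.99e-11), Ankrd23 by -0.99 ± 0.17 (adjusted p 2.59e-04) and -4.75 ± 0.24 (adjusted p 1.36e-09), and Ankrd1 by -0.49 ± 0.11 (adjusted p 0.00161) and -1.19 ± 0.11 (adjusted p 5.68e-07). Ankrd1 is known as a target of YAP and TEAD. The window of Pdlim3, which changed by -3.31 in the shPkm2-labelled libraries, held a pair of MCAT matches too, and the part of such sites was not tested. The window of Ankrd1 held MCAT matches 210 and 123 bases before the start, in capitals (GRCm38.p6, chr19:36119845-36120094, minus strand):

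Ankrd1 promoter: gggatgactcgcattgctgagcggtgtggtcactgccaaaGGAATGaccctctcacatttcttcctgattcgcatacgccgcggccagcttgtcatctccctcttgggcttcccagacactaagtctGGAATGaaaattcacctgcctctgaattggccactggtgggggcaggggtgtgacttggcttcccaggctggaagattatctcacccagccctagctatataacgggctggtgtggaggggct

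Of 10 other genes known as targets of YAP and TEAD, 4 were higher and 1 lower in shPkm1, and 3 higher and 4 lower in the shPkm2-labelled libraries, with medians of 0.05 and -0.12. The shares of all tested genes were 31.8% and 31.4%, and 33.9% and 34.2%, so the list in the shPkm2-labelled libraries was near the background. With library totals 5 were higher and 0 lower in shPkm1, where 40.5% of all tested genes were higher and 21.0% lower. In the shPkm2-labelled libraries 4 were then higher and 2 lower, with a median of 0.21, where 48.2% of all tested genes were higher and 21.4% lower. With limma on TPM 5 were higher and 0 lower in both hairpin groups. With a pseudocount of 1, 5923 and 6487 of 16387 genes were higher there, and 10.6% and 13.4% lower.

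Among chaperones and assembly factors, 5 of 6 fell in shPkm1 and all 6 in the shPkm2-labelled libraries, where 31.4% and 34.2% of all tested genes fell. Unc45b stood at 141 and 122 TPM in the shScr libraries, 31.5 and 35.9 TPM in shPkm1 and 0.99 and 0.87 TPM in the shPkm2-labelled libraries. Smyd1 stood at 103 and 82.8 TPM in the shScr libraries, 33.1 and 31.1 TPM in shPkm1 and 1.66 and 1.8 TPM in the shPkm2-labelled libraries. Unc45b, the chaperone of the myosin head, and Smyd1, a methyltransferase needed for thick filament assembly, were lower in shPkm1 and lowest in the shPkm2-labelled libraries. Unc45b changed by -2.36 ± 0.14 (adjusted p 1.47e-08) and -7.60 ± 0.20 (adjusted p 5.58e-12), and Smyd1 by -1.94 and -6.20. The small heat shock proteins ranged widely. Cryab stood at 1055 and 983 TPM in the shScr libraries, 1126 and 1044 TPM in shPkm1 and 285 and 299.5 TPM in the shPkm2-labelled libraries. Cryab, the alpha-B crystallin that protects desmin and titin, overlapped between shScr and shPkm1 on the TPM scale. Its count test there (-0.28 ± 0.12, adjusted p 0.04997) passed narrowly and was lost without any of 5 of the 6 libraries (adjusted p 0.0901 to 0.288). In the shPkm2-labelled libraries it fell by 2.19 ± 0.12 (adjusted p 4.43e-09). Hspb2 lies beside Cryab and overlaps it in the annotation, so that shared reads are uncertain. It stood at 253 and 217 TPM in shScr, 142 and 145 TPM in shPkm1 and 32.4 and 35.7 TPM in the shPkm2-labelled libraries, a change of -1.14 ± 0.14 (adjusted p 1.02e-05) and -3.52 ± 0.16 (adjusted p 4.49e-10).

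Hspb3 held 57 and 22 counts in the shScr libraries, 32 and 59 in shPkm1 and 0 and 0 in the shPkm2-labelled libraries. This muscle partner of Hspb2 was low and uneven in shScr, present in shPkm1 and not detected in the shPkm2-labelled libraries, at least 17.1-fold lower than shScr by the floor of 3 counts per library, or 8.74-fold against shScr library 2 alone. In shPkm1 no change was called (-0.03 ± 0.44, adjusted p 0.962). Without shScr library 1, with only shScr library 2 (22 counts) as control, the value was 0.92. Capn3 stood at 10.3 and 8.41 TPM in the shScr libraries, 8.2 and 7.58 TPM in shPkm1 and 6.52 and 5.59 TPM in the shPkm2-labelled libraries. Capn3, the muscle calpain held by titin, had the smallest fall of this group in the shPkm2-labelled libraries: -0.70 ± 0.16 (adjusted p 0.0020) and -1.24 ± 0.16 (adjusted p 1.80e-05). Without shScr library 1 the first was -0.43. The step between the hairpin groups was -0.54 ± 0.17 (adjusted p 0.0151). Without either shPkm1 library or without shPkm2 library 2 it lay between -0.57 and -0.46 and no longer passed the threshold.

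Many of the 42 genes have relatives that are used outside striated muscle, most of them in cells of many kinds. Of 25 such genes 24 were tested: 10 were higher and 5 lower in shPkm1, and 11 higher and 7 lower in the shPkm2-labelled libraries, with medians of 0.22 and -0.01. Of all tested genes 31.8% were higher and 31.4% lower in shPkm1, and 33.9% and 34.2% in the shPkm2-labelled libraries. With library totals 14 were higher and 4 lower in shPkm1, and 13 higher and 6 lower in the shPkm2-labelled libraries, where the shares of all tested genes were 40.5% and 21.0%, and 48.2% and 21.4%. For 8 members a relative was set beside the gene, chosen after the values had been seen. Vimentin, the intermediate filament of mesenchymal cells, was at 1703 and 2091 TPM in shScr, 4108 and 4157 in shPkm1 and 6311 and 6076 in the shPkm2-labelled libraries, higher by 0.74 ± 0.13 (adjusted p 3.14e-04) and 1.26 ± 0.13 (adjusted p 2.32e-06). The ratio of Des to Vim TPM was therefore 1.32 and 1.11 in shScr, 0.494 and 0.523 in shPkm1 and 0.12 and 0.112 in the shPkm2-labelled libraries. Desmin exceeded vimentin in both shScr libraries and was below it in all 4 others. Tmod3, the widespread tropomodulin, was higher by 1.40 and 1.35, and the ratio of Tmod1 to Tmod3 was 19.3 and 11.9 in shScr, 1.64 and 1.74 in shPkm1 and 0.20 and 0.192 in the shPkm2-labelled libraries. Flna was higher by 0.98 and 0.92 and Smyd2 by 1.23 and 0.69. Csrp2 was higher by 0.93 in shPkm1 and by 0.63 in the shPkm2-labelled libraries. Unc45a, the general form of the myosin chaperone, was not called in either comparison (0.04 and -0.05), while the ratio of Unc45b to Unc45a was 12.3 and 8.21 in shScr, 1.84 and 1.99 in shPkm1 and 0.0533 and 0.0531 in the shPkm2-labelled libraries. Pdlim1 went the other way in shPkm1, where it fell by 1.35. Among the 24 relatives, 6 were at least 2-fold lower in the shPkm2-labelled libraries, where 13.7% of all tested genes fell so far. Of these 6, Lmod1, the leiomodin of smooth muscle, fell most, by 4.01 (adjusted p 3.51e-08), followed by Hspb8 by 2.15 (adjusted p 3.12e-09). The others were Pdlim4, Capn1, Pdlim2 and Hspb1, which fell by 1.01 to 1.25. The named relatives that were higher, Vim, Tmod3, Flna, Smyd2 and Csrp2, were also higher with library totals and with limma on TPM. Both scales shift all genes upward, with medians over all genes of 0.19 to 0.33 and 0.31 to 0.45. They could thus hardly have shown otherwise.

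**Figure D4:**
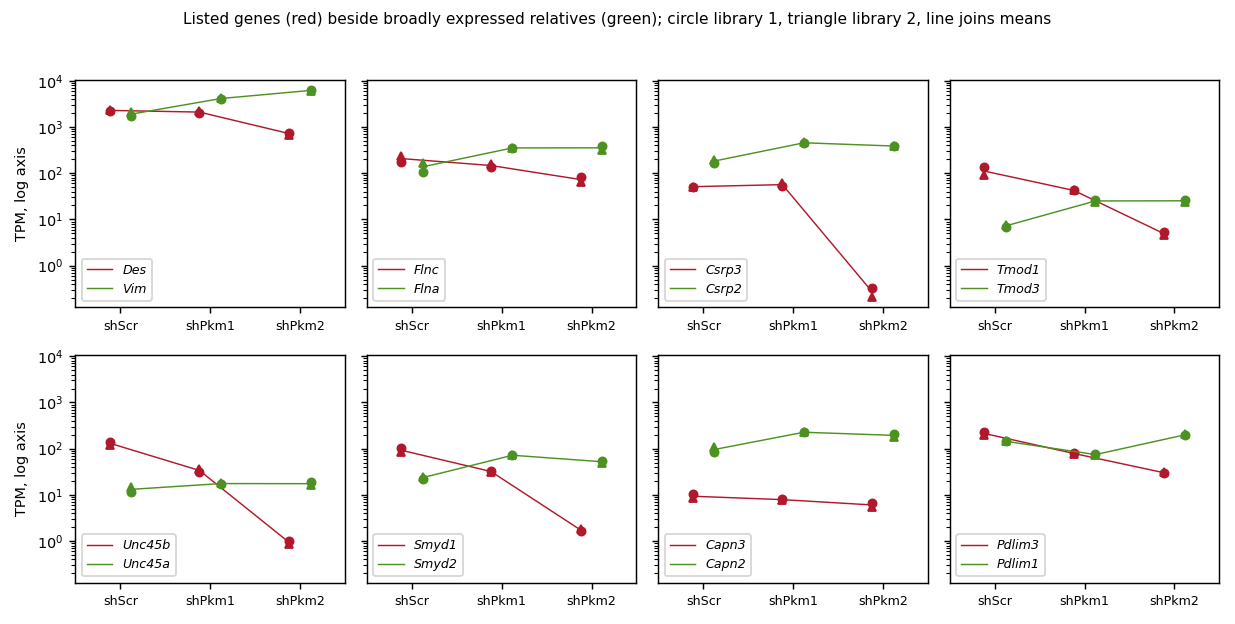
TPM on a log axis of 8 listed genes (red) and a broadly expressed relative of each (green) in each library; circles are library 1, triangles library 2, and lines join the means of the groups. Des and Flnc lie above their relatives in shScr and below them in both hairpin groups, and Unc45b and Tmod1 cross below only in shPkm2.

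Most other sarcomere genes on a list of this family were lower too. Of 24 further sarcomere genes 23 were tested, and 20 were lower and 1 higher in shPkm1, with 22 lower and 1 higher in the shPkm2-labelled libraries. Of all tested genes 31.4% and 34.2% were lower and 31.8% and 33.9% higher. The list's medians were -1.66 and -6.56. Actn2, the alpha-actinin of the Z-disc, stood at 96.4 and 23.3 TPM in shScr, 3.93 and 4.12 TPM in shPkm1 and 0.37 and 0.48 TPM in the shPkm2-labelled libraries. Myh8, the perinatal myosin, stood at 36.2 and 14.6 TPM in shScr, 3.15 and 3.59 TPM in shPkm1 and 0.10 and 0.12 TPM in the shPkm2-labelled libraries. In both genes shScr library 1 was far above library 2, and without it their log2 fold changes in shPkm1 were -2.85 and -2.41, against -4.34 and -3.34 with it. Hspb6, a small heat shock protein, was the gene that was higher in both, at 0.66 and 0.69. On the scale of counts, of 13 tested transcription factors of muscle, 7 were lower and 1 higher in shPkm1, and 7 lower and 3 higher in the shPkm2-labelled libraries. With library totals these counts were 6 lower and 3 higher, and 7 lower and 5 higher, where 21.0% and 21.4% of all tested genes were lower and 40.5% and 48.2% higher. Mef2c, a factor that works with MyoD on muscle genes, stood at 5.07 and 1.34 TPM in shScr, 0.96 and 0.95 TPM in shPkm1 and 0.070 and 0.050 TPM in the shPkm2-labelled libraries (log2 fold changes -2.25 and -6.02). Without shScr library 1 the values of Mef2c were -0.88 and -4.64. Myog, myogenin, stood at 2126 and 2051 TPM in shScr, 1429.8 and 1437 TPM in shPkm1 and 67.2 and 73.5 TPM in the shPkm2-labelled libraries (-0.94 and -5.35). Myf5, the early myogenic factor, was higher in the shPkm2-labelled libraries (1.74).

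By role, the loss in summed TPM was uneven. Relative to the shScr mean, the myosin-binding proteins kept 36.2% in shPkm1 and 0.658% in the shPkm2-labelled libraries, a sum led by Mybph. The giant filament and M-band genes kept 40.2% and 7.52%. The PDZ-LIM proteins kept 74.1% and 40.5%, led by Pdlim7, and the ankyrin repeat proteins 67.8% and 38.9%, led by Ankrd1. Z-disc structural genes kept 86.7% and 30.2%, of which desmin was the largest share. These values carry no test.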

How the data were processed

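RNA was sequenced in 6 libraries. The deposited table lists 57920 RefSeq transcripts with their estimated counts, TPM and FPKM. Per the submitters' processing notes, HISAT, StringTie, Bowtie, RSEM and DESeq2 and the build mm10 were used; versions, strandedness and filters are not given in the sources used here. The authors deposited estimated counts that are not all whole (whole in 47.98% to 50.7% of values), and per the file headers TPM and FPKM values scaled by them to length and depth. FPKM and 9 columns of group means were not used.

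Estimated counts were summed per NCBI gene, rounded and tested with edgeR 4.0.16 (R 4.3.3): filterByExpr (minimum 10, total 15), TMM scaling, 1 coefficient per group over all 6 libraries, quasi-likelihood F-test, two-sided, Benjamini-Hochberg adjustment over all 12643 genes, threshold 0.05. SE is the absolute log2 fold change over the root of F. TPM gave levels, shares and ratios, and limma tests as alternatives; fold changes and calls come from counts unless limma is named. Genes without a symbol held at most 0.148% of counts. A count of 3 or fewer per library was the floor; floors cover counting error only. A permutation of 2 libraries against 2 cannot go below a p of 0.333. Forms were classed with GENCODE M21 (GRCm38, the build of mm10); positions and promoters come from RefSeq GRCm38.p6.

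On simulated counts the gene test recovered nearly all genes changed 2-fold and most changed by 0.5 on the log2 scale. The test of unequal transcripts, added after transcript values had been seen, recovered only a small minority of known 4-fold and 8-fold changes at spreads taken from the data. The 8-fold changes were set only in transcripts of low spread. Its simulation was made easier in steps after this low recovery was seen. With a much smaller spread it found a call in all changed genes, but called only 56 of the 99 changed transcripts themselves. A transcript without a call says little.

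The members, lists and role groups were chosen with earlier results of these data known. Genes named in full were, per role group, the largest and smallest fall among genes averaging 50 counts or more, and members that rose, were not called or changed call under an alternative; of other lists at most 2 each way, plus relatives of members. Alternatives were DESeq2 size factors, library totals, no filter, a higher filter (50 counts on average), the DESeq2 test 1.42.0, a replicate block, limma 3.58.1 on log2(TPM + 1) and log2(TPM + 0.1), only the groups compared, and leaving out each library.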

Additional observations from a re-analysis of the deposited data

Results flagged for a closer look

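Xirp2 was the only tested member that was called higher in the shPkm2-labelled libraries than in shPkm1, a difference between the hairpin groups of 2.26 ± 0.33, adjusted p 7.98e-05. It held 14 and 17 counts in shPkm1 and 97 and 67 in the shPkm2-labelled libraries, and 46 and 82 in shScr. The hairpin groups did not overlap, and the other members called in this contrast were lower. Its counts are low, and the cause was not tested.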

How the results depend on the processing

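Over single members and alternatives, 1665 values kept direction and side of the threshold, 47 lost the call, 14 gained one and 15 changed sign. With limma on log2(TPM + 1) and log2(TPM + 0.1), 23 and 22 members were lower in shPkm1, the medians were -0.57 and -0.67 there, -2.89 and -3.68 in the shPkm2-labelled libraries and -1.97 and -2.01 between them. These fits called 1 member (Tmod4) higher in the shPkm2-labelled libraries against shScr and 2 higher against shPkm1. Without a filter and with DESeq2 2 members were higher there too, Nebl beside Xirp2. Library totals gave medians of -4.30 and -2.38 for shPkm2 against shScr and shPkm1, and shifted the median of all genes by 0.19, 0.33 and 0.14, so that 65.8%, 69.3% and 61.3% of calls were higher, against 50.3%, 49.8% and 48.4%. The median between hairpin groups, -2.51 in the fit reported above, was -3.20 over genes averaging 50 counts or more and -3.19 when only those groups were fitted, both over fewer genes. Leaving out each library in turn, 32 to 38 members were lower in shPkm1, 0 to 1 higher (Hspb3) and the median ran from -1.73 to -1.21. Between hairpin groups 32 to 36 were lower, 1 to 2 higher and the median ran from -3.10 to -2.28. In the shPkm2-labelled libraries 37 were lower in each case, with a median from -4.79 to -4.38.

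Values against shScr in shPkm1 that changed sign were 0.022 and 0.022 for Pdlim7, 0.14 and 0.15 for Csrp3, 0.090 and 0.090 for Cryab and 0.38 and 0.46 for Hspb3 with limma, 0.18 for Hspb3 with library totals, and, over left-out libraries, -0.62 to 0.92 for it, with 0.92 without shScr library 1 and 0.33 without shPkm1 library 1. Over left-out libraries Xirp2 in the shPkm2-labelled libraries ran from -0.25 (without shScr library 1; -0.24 without shPkm2 library 1) to 0.42, and Tmod4 between the hairpin groups from -0.45 (without shPkm2 library 1) to 0.58. None but the 0.92 of Hspb3 passed the threshold, and the cause was not tested. Replicate numbers did not pair the libraries (correlations of deviations -0.0256, 0.0418 and 0.0527). With the replicate block 34, 37 and 36 members were lower in the 3 comparisons, Hspb3 in shPkm1 was at 0.029, and of their transcripts 13 were lower and 0 higher in shPkm1 and 0 higher between hairpin groups, with fewer residual degrees of freedom. Transcript counts were recomputed only without a filter and with the block. Depth limits Mybpc2, Tcap, Csrp3, Smpx, Myoz1 and Hspb3 in the shPkm2-labelled libraries to lower bounds.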
